A study of Mus musculus with 16 samples.

Results

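Acute-phase genes code for proteins whose blood or tissue levels change during inflammation, and 9 of them were followed here in mouse lung: Saa3, Lcn2, Lbp, Hp, Hpx, Cp, Orm1, Serpina3n and Socs3. The genes were listed by name, and each was read from a probe set that carried its symbol alone, chosen by the highest mean level over the 16 arrays. They are 9 of the 18193 genes that had such a probe set, and all 9 were among the 12369 genes tested. The mean over all arrays is the only measured value that chose a probe set. To be tested, a probe set had to exceed the median of the array on 4 arrays or more. The probe sets of 7 genes did so on all 16 arrays, that of Orm1 on 13 and that of Hpx on 10, so Hpx stood closest to this limit.

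Lungs came from female BALB/c mice, an inbred strain, in 4 groups of 4 samples with 1 array each. Pregnant TiO2 and pregnant PBS mice were at gestation day 14, and non-pregnant TiO2 and non-pregnant PBS mice served as their counterparts. The TiO2 groups received 50 ug of titanium dioxide dust, heated beforehand to remove endotoxin, as a single dose into the nose under light halothane anaesthesia, and the PBS groups received the saline vehicle in the same way. Whole-lung RNA was taken 19 hours later and measured on 1-colour Affymetrix mouse expression arrays, a design that asks whether pregnancy alters the lung's response to a dust regarded as inert. The labels give no ages and name no transgene or deletion in any group.

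All levels below are log2(quantile-normalized intensity + 16), on which a signal of 0 reads as 4, and all changes are differences on that scale. Fewer cells of a type and less RNA per cell cannot be told apart in whole-lung RNA. The alveolar surfactant gene Sftpc (13.15 to 13.49) and the club cell secretoglobin Scgb1a1 (13.44 to 13.55) were at the top of the scale on all 16 arrays. Of 15 liver markers with a probe set, 13 exceeded the array median on fewer than 4 arrays and were not tested, among them Alb (5.03 to 6.26), Apoa2 (4.20 to 5.59) and Ttr (4.04 to 4.86). The other 2, Fabp1 (6.83 to 8.42) and Cyp2e1 (9.06 to 11.91), were brighter. Several arrays stood apart in tissue content. Prss16, a thymic protease, read 8.98 in replicate 3 and 9.72 in replicate 4 of the non-pregnant PBS group and did not exceed 6.32 elsewhere. Glycam1, which lymph node venules express, read 4.15 in pregnant TiO2 replicate 2, 4.14 in non-pregnant TiO2 replicate 1 and 4.60 in non-pregnant TiO2 replicate 4, against 8.06 or more on the other 13 arrays. Pregnant TiO2 replicate 2 also had little signal for the squamous keratin Krt13 (5.21) and the muscle actin Acta1 (6.56). The labels of non-pregnant PBS replicate 2 conflict, since its source text calls the mouse pregnant while its gestation entry does not.

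The acute-phase response is known best from liver, where interleukin 6 acting through STAT3, and interleukin 1 acting through NF-kB and C/EBP factors, raise the output of secreted defence and carrier proteins. Airway and alveolar epithelium, macrophages, neutrophils and fat cells make some of the same proteins locally. Glucocorticoids, acting through their nuclear receptor, add to the induction of several of them, and Socs3 feeds back on the interleukin 6 signal. Promoters of 6 of the 9 genes, running from 250 bases before to 50 bases after a start, were found among the RefSeq sequences of GRCm38.p6. Hp, Orm1 and Lbp had no entry. Each was searched on both strands for 4 motifs: C/EBP as TTGCNNAA, STAT as TTCNNNGAA, a degenerate NF-kB site and the palindromic glucocorticoid response element. N stands for any base. Of 32851 mouse promoters of this length, 10.8% held the C/EBP letters, 8.3% the STAT letters, 4.01% the NF-kB letters and 0.475% the glucocorticoid response element letters. These shares count promoters, and the 6 genes had 7 promoters because Cp had more than 1 start. C/EBP letters were present in 4 of the 6 genes, or 4 of the 7 promoters (Saa3, Lcn2, Hpx and the second start of Cp). STAT letters were present in Socs3, glucocorticoid response element letters in Serpina3n, and NF-kB letters in none. A match is a run of letters and not a measured binding site.

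Promoters are printed for the pair that varied most alike (Saa3 and Lcn2), for a gene that varied apart from them (Socs3) and for the gene with the rarest motif (Serpina3n), with the matched letters in capitals. Capitals mark C/EBP letters 99 bases before the start in Saa3 and 216 in Lcn2, STAT letters 154 before it in Socs3, and glucocorticoid response element letters 78 before it in Serpina3n. The regions, in the order printed, are chr7:46715627-46715926 on the minus strand, chr2:32387690-32387989 on the minus strand, chr11:117969317-117969616 on the minus strand and chr12:104406458-104406757 on the plus strand of GRCm38.p6.
Saa3 promoter: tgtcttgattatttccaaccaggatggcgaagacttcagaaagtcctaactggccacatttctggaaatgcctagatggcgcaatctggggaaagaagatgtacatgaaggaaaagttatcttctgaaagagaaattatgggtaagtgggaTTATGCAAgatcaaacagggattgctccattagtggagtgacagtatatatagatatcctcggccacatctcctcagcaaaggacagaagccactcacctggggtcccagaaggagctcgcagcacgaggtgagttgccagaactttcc
Lcn2 promoter: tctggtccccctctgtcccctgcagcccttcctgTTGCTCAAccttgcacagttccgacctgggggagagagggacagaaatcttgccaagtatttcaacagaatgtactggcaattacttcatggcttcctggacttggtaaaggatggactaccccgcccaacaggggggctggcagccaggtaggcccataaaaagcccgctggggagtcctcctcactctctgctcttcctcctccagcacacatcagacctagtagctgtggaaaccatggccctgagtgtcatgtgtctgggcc
Socs3 promoter: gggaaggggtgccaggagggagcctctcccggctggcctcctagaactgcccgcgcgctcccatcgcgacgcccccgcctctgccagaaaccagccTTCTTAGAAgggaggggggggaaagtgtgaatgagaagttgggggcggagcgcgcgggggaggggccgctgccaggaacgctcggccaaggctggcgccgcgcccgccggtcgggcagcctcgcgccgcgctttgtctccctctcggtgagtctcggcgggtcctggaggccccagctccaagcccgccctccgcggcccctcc
Serpina3n promoter: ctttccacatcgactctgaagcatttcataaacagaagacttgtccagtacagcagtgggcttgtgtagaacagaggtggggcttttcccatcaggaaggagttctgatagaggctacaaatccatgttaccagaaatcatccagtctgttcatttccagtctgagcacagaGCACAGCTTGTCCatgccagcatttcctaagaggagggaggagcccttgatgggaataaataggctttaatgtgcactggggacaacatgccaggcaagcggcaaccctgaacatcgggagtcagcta

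Among the genes whose products meet bacteria, Lcn2 was higher in pregnant lungs after either exposure and stood highest in pregnant mice given TiO2. Lcn2 encodes lipocalin 2, which captures the iron-binding siderophores of bacteria. Its level was 11.17, 11.48, 11.22 and 11.80 in pregnant TiO2 lungs, against 10.53, 11.09, 10.38 and 10.76 in non-pregnant TiO2 lungs. After PBS it was 10.54, 10.56, 10.95 and 10.53 in pregnant mice, against 10.42, 9.93, 9.57 and 10.20 in non-pregnant mice. Neither pair of groups overlapped, and in the order of group means only non-pregnant TiO2 and pregnant PBS, the middle pair, overlapped. Averaged over both exposures Lcn2 rose in pregnancy by 0.67 ± 0.14 log2 (SE), 1.59-fold (limma adjusted p = 0.0109). Taken singly, the change was 0.73 ± 0.19 after TiO2 (adjusted p = 0.0655) and 0.61 ± 0.19 after PBS (adjusted p = 0.181). The change after TiO2 was called without non-pregnant PBS replicate 3 (adjusted p = 0.0352). That array is in neither group compared, so the change stayed the same and the spread estimate differed. The averaged call held with each of the 16 arrays left out in turn. The averaged call ended with the array of conflicting labels counted as pregnant PBS (0.58, adjusted p = 0.0867) and without the 3 arrays with little Glycam1 (0.64, adjusted p = 0.0752).

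Saa3 encodes the serum amyloid A that mice make chiefly outside the liver. Its level was 9.05, 9.04, 8.53 and 9.92 in pregnant TiO2 lungs, against 8.04, 8.05, 8.15 and 7.53 in pregnant PBS lungs. It was 8.34, 8.22, 8.05 and 8.54 in non-pregnant TiO2 lungs, against 8.67, 7.76, 6.83 and 7.52 in non-pregnant PBS lungs. The pregnant TiO2 arrays lay above every pregnant PBS array, whereas the non-pregnant groups overlapped over the whole range of the TiO2 arrays. The change with TiO2 was 1.19 ± 0.32 log2 in pregnant mice (2.29-fold, 95% interval 0.52 to 1.87, adjusted p = 0.513) and 0.59 ± 0.32 in non-pregnant mice (adjusted p = 0.565). The difference between these changes was 0.60 ± 0.45 (adjusted p = 0.639). Between pregnant and non-pregnant mice Saa3 differed by 0.85 ± 0.32 after TiO2 (adjusted p = 0.158) and by 0.25 ± 0.32 after PBS (adjusted p = 0.837). The change with TiO2 in non-pregnant mice was 0.08 without the 2 arrays with thymus transcripts, where the change between pregnant and non-pregnant mice after PBS was -0.27. The related Saa1 (4.53 to 5.45) and Saa2 (4.42 to 5.10) were near the floor on every array.

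Lbp encodes the protein that hands lipopolysaccharide to CD14. Its level was 10.07, 10.12, 9.92 and 10.12 in pregnant TiO2 lungs and 9.64, 9.75, 9.55 and 9.62 in non-pregnant TiO2 lungs. It was 9.80, 9.63, 9.78 and 10.13 in pregnant PBS lungs and 9.75, 9.71, 9.68 and 9.51 in non-pregnant PBS lungs. The TiO2 groups did not overlap and the PBS groups did. Lbp rose in pregnancy by 0.42 ± 0.10 after TiO2 (1.33-fold, adjusted p = 0.0446) and by 0.29 ± 0.07 averaged over both exposures (adjusted p = 0.0263), against 0.17 ± 0.10 after PBS (adjusted p = 0.535). A dimmer second probe set of Lbp did not show it, with 0.11 ± 0.18 after TiO2 and 0.08 ± 0.13 on average. The average call was lost without pregnant TiO2 replicate 4 (0.28, adjusted p = 0.0537), non-pregnant TiO2 replicate 1 (0.30, 0.0506), non-pregnant TiO2 replicate 3 (0.28, 0.0598) or non-pregnant PBS replicate 4 (0.27, 0.0555). The call after TiO2 was kept in 6 of the 16 fits that left out 1 array, over which the change stayed between 0.39 and 0.46. It was lost without any 1 of the 8 TiO2 arrays, pregnant or not, and without pregnant PBS replicate 1 or 3, with adjusted p of 0.0551 to 0.117. Leaving out a PBS array does not alter the change after TiO2, only the spread estimate shared by all groups.

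The partners of these proteins were measured too. Cd14, the surface receptor that takes lipopolysaccharide from Lbp, was 0.26 ± 0.16 higher in pregnant than in non-pregnant mice after TiO2 (adjusted p = 0.360). The signalling receptor Tlr4 differed by 0.02 ± 0.13 (adjusted p = 0.961) and its companion Ly96 by 0.18 ± 0.15 (adjusted p = 0.525). Slc22a17, a lipocalin 2 receptor, differed by -0.17 ± 0.16 (adjusted p = 0.554). None of these 4 passed the test in any of the 7 comparisons.

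**Figure D1:**
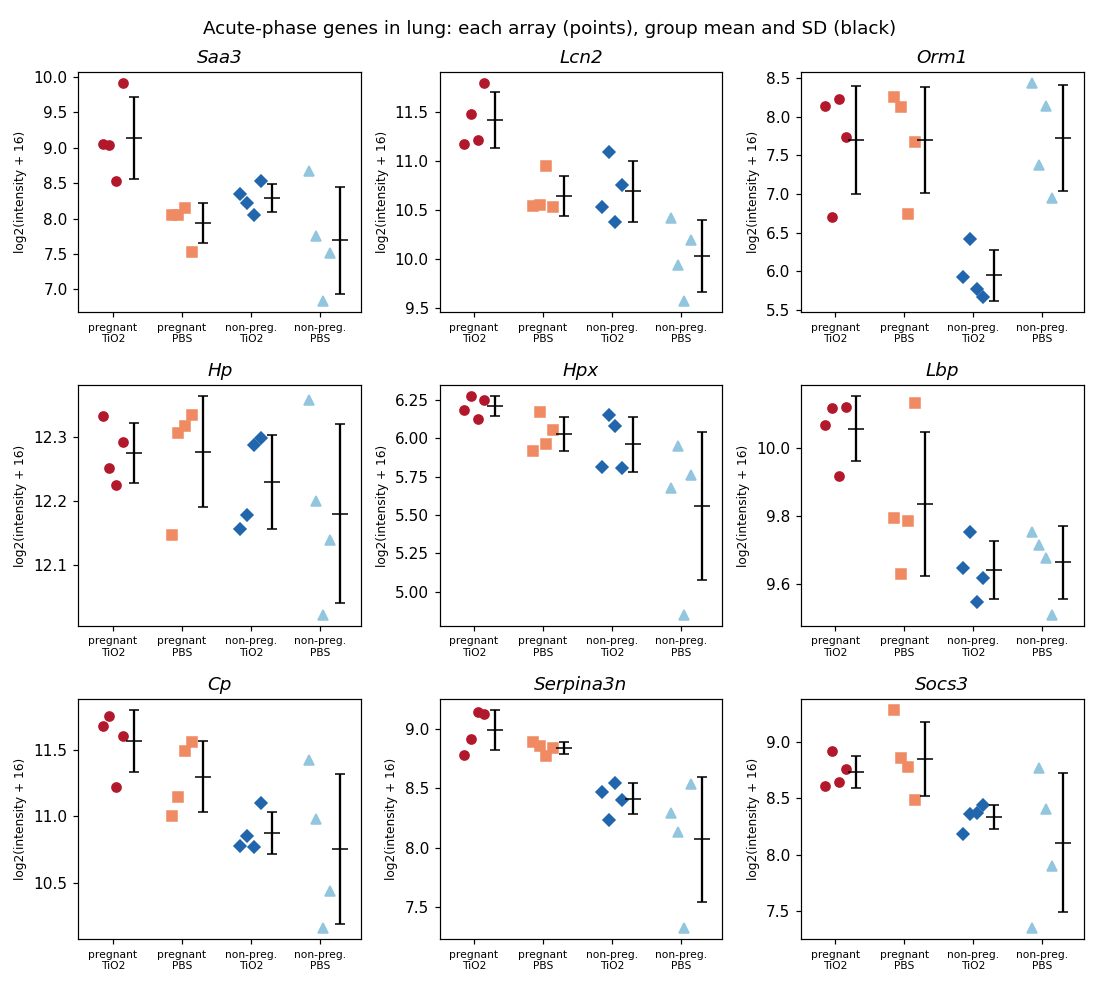
Level of each of the 9 genes on the 16 arrays, as log2(quantile-normalized intensity + 16) on the vertical axis, with the 4 groups along the horizontal axis, points for arrays and black bars for the group mean and SD (n = 4). The axes start at different values because levels of different probe sets cannot be compared. Lcn2, Lbp, Cp, Serpina3n and Socs3 lie higher in pregnant than in non-pregnant TiO2 lungs with no overlap, Orm1 is lowest in non-pregnant TiO2 lungs, and Hp stays between 12.02 and 12.36 on all arrays.

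Among the carriers of copper, haem and haemoglobin, Cp was higher in pregnant lungs, Hp hardly differed and Hpx was dim. Cp encodes ceruloplasmin, the copper-bearing ferroxidase of plasma. Its level was 11.68, 11.75, 11.22 and 11.60 in pregnant TiO2 lungs, against 10.77, 10.85, 10.76 and 11.10 in non-pregnant TiO2 lungs, with no overlap. It was 11.00, 11.15, 11.49 and 11.55 in pregnant PBS lungs, against 11.42, 10.98, 10.16 and 10.44 in non-pregnant PBS lungs, and these groups overlapped. Averaged over both exposures Cp rose in pregnancy by 0.62 ± 0.16 log2, 1.54-fold (adjusted p = 0.0323). The change was 0.69 ± 0.22 after TiO2 (adjusted p = 0.102) and 0.55 ± 0.22 after PBS (adjusted p = 0.319). The averaged call was kept in 7 of the 16 fits with 1 array left out, with changes between 0.52 and 0.73 over the 16. It was lost, with adjusted p up to 0.0706, without pregnant TiO2 replicate 1, 2 or 4, pregnant PBS replicate 3 or 4, non-pregnant TiO2 replicate 1, 2 or 3, or non-pregnant PBS replicate 4. Without the 2 arrays with thymus transcripts, which were the lowest of Cp on all 16, the averaged change was 0.39 (adjusted p = 0.0631) and that after PBS 0.10.

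Cp was also the gene with the most probe sets, 8 in all. The 4 brightest gave averaged changes of 0.62 ± 0.16, 0.66 ± 0.11, 0.67 ± 0.13 and 0.69 ± 0.11 in pregnancy. The other 4 gave 0.12 ± 0.11, 0.33 ± 0.24, -0.02 ± 0.08 and -0.27 ± 0.19, the last from a probe set that was above its array's median on 0 arrays. The 8 probe sets of Cp thus gave changes of unequal size, and which of them reads Cp best was not tested.

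Hp encodes haptoglobin, which binds free haemoglobin. Its level ranged from 12.23 to 12.33 in pregnant TiO2 lungs, from 12.15 to 12.34 in pregnant PBS lungs, from 12.16 to 12.30 in non-pregnant TiO2 lungs and from 12.02 to 12.36 in non-pregnant PBS lungs. All 4 groups overlapped, and its SD within groups, 0.09 log2 in the fit, was the smallest of the 9 genes. The change with pregnancy was 0.07 ± 0.06 on average (95% interval -0.05 to 0.19, adjusted p = 0.521). The change with TiO2 had a 95% interval of -0.17 to 0.17 in pregnant mice and of -0.12 to 0.22 in non-pregnant mice.

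Hpx encodes haemopexin, the plasma scavenger of free haem. Its level ranged from 6.13 to 6.27 in pregnant TiO2 lungs and from 5.92 to 6.17 in pregnant PBS lungs. In non-pregnant mice it ranged from 5.80 to 6.15 after TiO2 and from 4.85 to 5.95 after PBS. The arrays on which it did not exceed the array median were mostly non-pregnant. They were non-pregnant PBS replicates 1, 3 and 4, non-pregnant TiO2 replicates 1 and 4, and pregnant PBS replicate 1. The lowest value, 4.85, was that of non-pregnant PBS replicate 3, which was also the lowest of all 16 arrays for Saa3, Lcn2, Hp, Cp and Serpina3n. Hpx was 0.36 ± 0.12 higher in pregnancy on average (adjusted p = 0.114). The averaged change was 0.24 without that array (adjusted p = 0.0562).

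Receptors for these carriers showed no call. Cd163, the macrophage receptor for haptoglobin bound to haemoglobin, was 0.30 ± 0.14 higher in pregnancy on average (adjusted p = 0.241). Lrp1, which takes up haemopexin with haem, differed by -0.04 ± 0.07 (adjusted p = 0.815), and the haem-degrading enzyme Hmox1 by -0.13 ± 0.12 (adjusted p = 0.577).

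Serpina3n was higher in pregnant lungs after either exposure, and Orm1 was lowest in non-pregnant mice given TiO2. Serpina3n encodes a secreted inhibitor of serine proteases. Its level was 8.79, 8.91, 9.14 and 9.12 in pregnant TiO2 lungs, against 8.47, 8.24, 8.54 and 8.40 in non-pregnant TiO2 lungs. It was 8.89, 8.86, 8.78 and 8.84 in pregnant PBS lungs, against 8.29, 8.13, 7.32 and 8.54 in non-pregnant PBS lungs. All 8 pregnant arrays lay above all 8 non-pregnant arrays. Serpina3n rose in pregnancy by 0.67 ± 0.13 log2 on average, 1.60-fold (adjusted p = 0.00797), and this call held with each array left out in turn (0.55 to 0.75). It ended with the array of conflicting labels counted as pregnant PBS (0.61, adjusted p = 0.0665) and without the 3 arrays with little Glycam1 (0.70, adjusted p = 0.0509). The change was 0.58 ± 0.19 after TiO2 (adjusted p = 0.104) and 0.77 ± 0.19 after PBS (adjusted p = 0.0622). Without non-pregnant PBS replicate 3 the change after PBS was 0.52 (adjusted p = 0.0289). That after TiO2 kept its size, since the array is in neither group compared, and had an adjusted p of 0.0120. Without non-pregnant PBS replicate 4 the change after PBS was 0.93 (adjusted p = 0.0271).

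Orm1 encodes alpha-1-acid glycoprotein, a plasma carrier of basic drugs and lipids. Its level was 8.14, 6.70, 8.23 and 7.74 in pregnant TiO2 lungs, against 5.92, 6.42, 5.77 and 5.67 in non-pregnant TiO2 lungs. It was 8.25, 8.13, 6.75 and 7.67 in pregnant PBS lungs, against 8.44, 7.37, 8.14 and 6.95 in non-pregnant PBS lungs. The non-pregnant TiO2 arrays lay below all 12 others, and the other 3 groups overlapped with means of 7.70 to 7.72. Non-pregnant TiO2 replicates 1, 3 and 4 were the arrays on which Orm1 did not exceed the array median. After TiO2 Orm1 was higher in pregnant than in non-pregnant mice by 1.76 ± 0.39 log2, 3.38-fold (95% interval 0.93 to 2.58, adjusted p = 0.0314). TiO2 changed Orm1 by -1.78 ± 0.39 in non-pregnant mice, which did not pass the test (adjusted p = 0.224), and in pregnant mice the 95% interval was -0.82 to 0.83. The difference of these changes was 1.78 ± 0.55 (adjusted p = 0.356).

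Markers of fat cells varied with Orm1. The summed intensity of the 14 fat markers with a probe set ran from 9073 to 27870 in pregnant TiO2 lungs and from 8123 to 17615 in non-pregnant TiO2 lungs. After PBS it ran from 14745 to 30886 in pregnant and from 17425 to 28814 in non-pregnant lungs. All 13 fat markers tested had a negative change with TiO2 in non-pregnant mice, with a median of -1.37. No gene tested passed there in the main fit. Between pregnant and non-pregnant mice given TiO2 all 13 had a positive change, with a median of 1.31. Adipoq, the fat cell hormone adiponectin, was 8.39, 10.16, 9.30 and 7.73 in non-pregnant TiO2 lungs and between 8.65 and 11.53 elsewhere. Over the 16 arrays Orm1 correlated with the mean of the fat markers at Pearson's r = 0.88 and, after group means were removed, at 0.81, as a description of arrays that share dissection and labelling. Its closest matches among all genes tested were Thrsp (r = 0.95), a lipogenic regulator, and Fasn (r = 0.95), the fatty acid synthase. Thrsp is itself on the fat marker list and so part of that mean. Without the 3 arrays with little Glycam1, 2 of them in the low Orm1 group, the change between pregnant and non-pregnant mice after TiO2 was 1.94 (adjusted p = 0.131). The call was kept in 10 of the 16 fits that left out 1 array, with changes of 1.58 to 2.09, and lost without pregnant TiO2 replicate 1 (1.61, adjusted p = 0.105), 3 (1.58, 0.0778) or 4 (1.74, 0.0790) or non-pregnant TiO2 replicate 1 (1.75, 0.0892), 3 (1.70, 0.0825) or 4 (1.66, 0.0805). The mean of Fabp1 and Cyp2e1, the only liver markers tested, correlated with Orm1 at r = 0.55, and so few genes cannot stand for liver. The part of fat or of liver in these values was not tested. Orm2 (4.59 to 5.38) and Orm3 (4.09 to 5.33) were near the floor, and whether the Orm1 probes also read them was not tested.

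**Figure D2:**
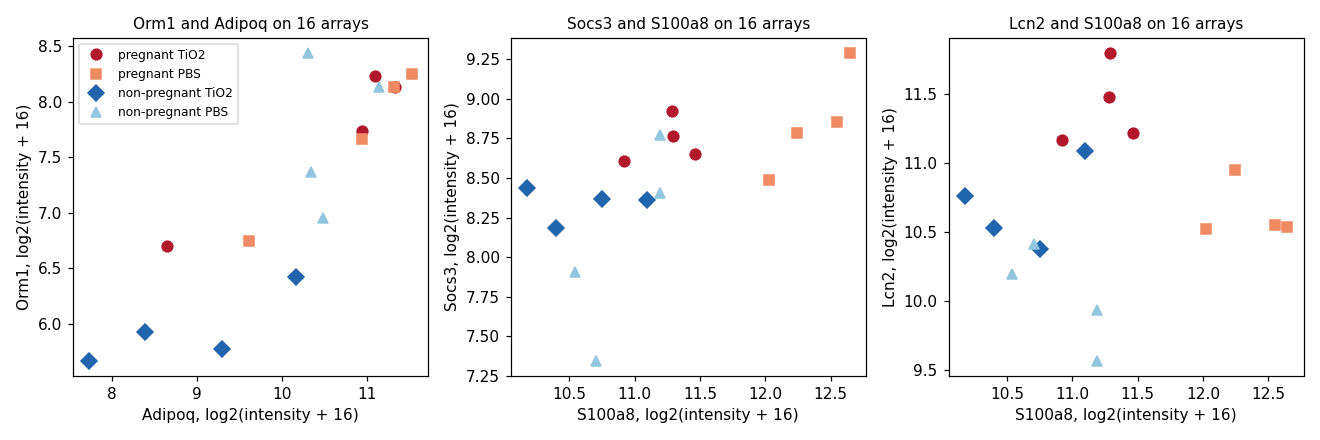
Orm1 against the fat cell gene Adipoq (left), and Socs3 (middle) and Lcn2 (right) against the neutrophil gene S100a8, each point 1 of the 16 arrays and both axes in log2(quantile-normalized intensity + 16). The 4 non-pregnant TiO2 arrays hold the lowest Orm1 values, 5.67 to 6.42, and 2 of the 3 lowest Adipoq values, while Lcn2 is highest in pregnant TiO2 lungs and S100a8 in pregnant PBS lungs.

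Socs3 encodes the feedback inhibitor of cytokine signalling through JAK kinases and STAT3, and is itself a STAT3 target. Its level was 8.61, 8.92, 8.65 and 8.77 in pregnant TiO2 lungs, against 8.19, 8.36, 8.37 and 8.44 in non-pregnant TiO2 lungs, with no overlap. It was 9.29, 8.86, 8.78 and 8.49 in pregnant PBS lungs, against 7.35, 8.77, 8.40 and 7.90 in non-pregnant PBS lungs. The averaged change with pregnancy was 0.57 ± 0.16 and missed the threshold (adjusted p = 0.0588). The other 2 probe sets of Socs3 gave 0.39 ± 0.10 (unadjusted p = 0.00129) and 0.41 ± 0.07 (unadjusted p = 4.2e-05), against an unadjusted p of 0.00297 for the one used. Socs3 passed in 5 of the 13 alternatives to the averaged fit. Without non-pregnant PBS replicate 2, whose labels conflict, the change was 0.68 on average (adjusted p = 0.0153) and 0.97 after PBS (adjusted p = 0.0392), against 0.75 ± 0.23 with it (adjusted p = 0.170). Without non-pregnant PBS replicate 3 the averaged change was 0.62 (adjusted p = 0.0384).

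Many neutrophil markers and some macrophage markers rose in pregnancy as well. The summed intensity of 18 neutrophil markers ran from 7858 to 9550 in pregnant TiO2 lungs and from 5013 to 6792 in non-pregnant TiO2 lungs. After PBS it ran from 12512 to 17840 in pregnant and from 5710 to 7312 in non-pregnant lungs. Of the 13 tested, 9 rose in pregnancy on average, where 3.19% of all genes did. Socs3 followed the mean of these markers over the 16 arrays (r = 0.69), whereas Lcn2, whose protein neutrophils also store in granules, hardly did (r = 0.20). With group means removed, r was 0.57 for Socs3 and 0.10 for Lcn2. Serpina3n had the next highest r after Socs3, 0.53, and 0.08 with group means removed. In pregnant mice the change with TiO2 was -1.13 ± 0.21 for S100a8, a neutrophil calcium-binding protein (adjusted p = 0.257), against 0.77 ± 0.19 for Lcn2. Of 10 macrophage markers tested 3 rose on average, the scavenger receptor Marco (1.47 ± 0.27), the lysosomal protein Cd68 (0.51 ± 0.08) and Krt79 (0.57 ± 0.12), with a list median of 0.17 against 0.01 for all genes. Their summed intensity ran from 11425 to 12685 in pregnant TiO2 lungs and from 10754 to 11969 in non-pregnant TiO2 lungs. After PBS it ran from 12004 to 12914 in pregnant and from 10890 to 12388 in non-pregnant lungs. The mean of the airway secretory markers followed Lcn2 (r = 0.67), Lbp (r = 0.66) and Saa3 (r = 0.58) more closely than that of the neutrophil markers did. Once group means were removed these r were 0.15, 0.30 and 0.20. The same order held for Cp (0.55 against 0.34), Hpx (0.51 against 0.33), Serpina3n (0.56 against 0.53) and Hp (0.25 against 0.16). The reverse held for Orm1 (0.35 against 0.47) and Socs3 (0.30 against 0.69). The part of any of these cell types in the values of the 9 genes was not tested.

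Over the 9 genes, pregnancy gave more calls than TiO2. Averaged over both exposures 4 of 9 rose in pregnancy (Lcn2, Lbp, Cp and Serpina3n), where 3.19% of all genes tested were called higher. The median of the 9 changes was 0.57, against 0.01 for all genes, and all 9 lay above 0, as did 53.9% of all genes. An unadjusted p under 0.05 was found for 8 of the 9 and for 19.6% of all genes. After TiO2 2 of 9 rose (Orm1 and Lbp), against 1.37% of all genes, with a median of 0.58 against 0.03, and 6 of 9 had an unadjusted p under 0.05, against 20.4%. Groups did not overlap in 6 of 9 (Lcn2, Orm1, Lbp, Cp, Serpina3n and Socs3), where 9.56% of all genes were higher without overlap. After PBS limma called 0 of 9 and 0.808% of all genes higher, with 5 of the 9 at an unadjusted p under 0.05, against 11.9%. Lcn2 and Serpina3n, 2 of 9, were higher without overlap after PBS, against 3.46% of all genes, and the median was 0.47 against 0.01. These comparisons share their arrays, and the difference between the pregnancy effects after TiO2 and after PBS is the same number as the difference between the TiO2 effects.

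The number of calls depended on a few arrays. With the array of conflicting labels counted as pregnant PBS, 1 gene was called on average, Socs3 (0.68, adjusted p = 0.0327), and calls among all genes tested numbered 109, against 547 with that array as non-pregnant. Without the 2 arrays with thymus transcripts 2 genes were called on average, 5 after TiO2 and 1 after PBS, while calls among all genes numbered 1003, 420 and 249 in that order of comparisons. With all 16 arrays they numbered 547, 233 and 129. The 2 arrays with thymus transcripts are in neither group compared after TiO2, so the changes there stayed the same and the spread estimate differed. Without the 3 arrays with little Glycam1, 0 were called in each of these comparisons, and among all genes 204 on average, 5 after TiO2 and 101 after PBS, while the median change was 0.62 on average and 0.63 after TiO2.

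TiO2 gave no call in either pregnancy state. In pregnant mice limma called 0 of 9, against 0% of all genes, and 3 of the 9 had an unadjusted p under 0.05 (Saa3, Lcn2 and Lbp), as did 6.43% of all genes. Saa3 and Lcn2, 2 of 9, were higher after TiO2 without overlap, against 2.05% of all genes. The change of Lcn2 was much the same size in both states, at 0.77 ± 0.19 in pregnant mice (1.71-fold, adjusted p = 0.447) and at 0.66 ± 0.19 in non-pregnant mice (1.58-fold, adjusted p = 0.303).

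In non-pregnant mice limma also called 0 of 9 and 0% of all genes. An unadjusted p under 0.05 was found for 3 of the 9 (Lcn2, Orm1 and Hpx), as for 9.89% of all genes. Orm1 was the 1 gene of 9 whose groups did not overlap, against 5.2% of all genes in either direction. Averaged over both pregnancy states 0 of 9 and 0% of all genes were called by limma, with 4 of the 9 at an unadjusted p under 0.05 (Saa3, Lcn2, Orm1 and Hpx) against 6.2%. Lcn2 stood at 0.72 ± 0.14 there, with an adjusted p of 0.206, the lowest of all genes and one that it shared with others such as Il1b and Pigr, and Saa3 at 0.89 ± 0.23 (adjusted p = 0.354). For the difference between the TiO2 effects in pregnant and in non-pregnant mice 0 of 9 and 0% of all genes were called, with 1 of the 9, Orm1, at an unadjusted p under 0.05 against 10.9%. For Lcn2 that difference was 0.11 ± 0.27 (95% interval -0.47 to 0.69, adjusted p = 0.900).

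**Figure D3:**
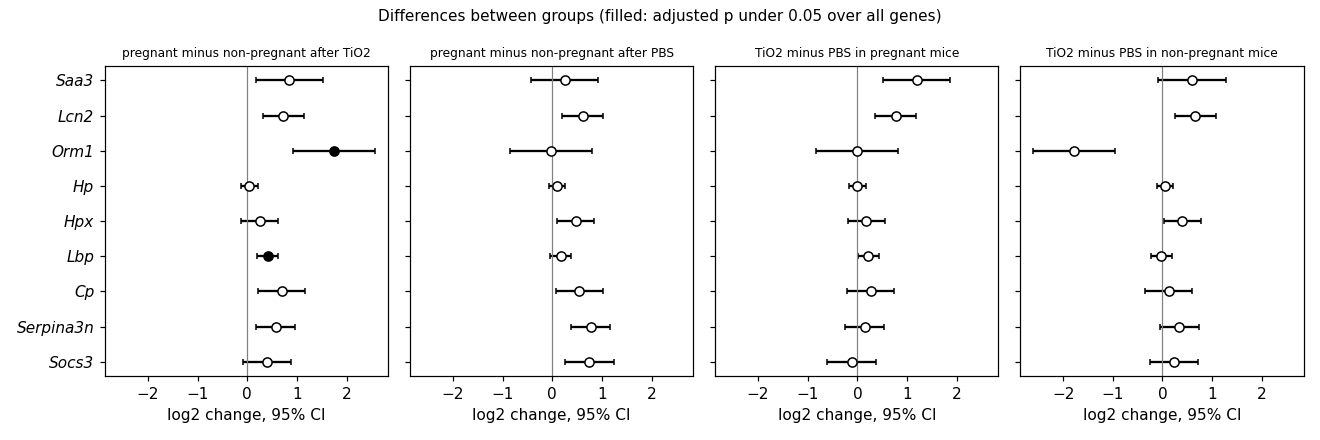
Log2 change (horizontal axis, points) with its 95% interval (bars) for the 9 genes in 4 comparisons, from the limma fit of all 16 arrays, with filled points for an adjusted p under 0.05 over all genes. Filled points are Orm1 (1.76) and Lbp (0.42), both for pregnant minus non-pregnant after TiO2, and the widest shift to the left is Orm1 with TiO2 in non-pregnant mice (-1.78).

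The genes differed in how far they varied together over the 16 arrays, which share laboratory, platform and dissection. Saa3 and Lcn2 were most alike at r = 0.87, and at 0.73 once group means were removed. Each was the closest match of the other among all genes tested, and Cd14 was the second of Saa3 (r = 0.87). Among the 7 genes other than Orm1 and Socs3, the 21 pairs had r from 0.38 to 0.87 with a median of 0.66. Pairs with Orm1 had r from -0.13 to 0.38 and pairs of Socs3 with the 7 had r from -0.07 to 0.41. Once group means were removed, the 21 pairs had r from -0.24 to 0.85, so not all of the 7 varied together within groups. On that measure pairs with Orm1 had r from -0.22 to 0.05 and pairs of Socs3 with the 7 from -0.57 to -0.09. Hp and Cp, both metal or haemoglobin handling genes of plasma, had r = 0.81, although the change of Hp with pregnancy was close to 0. Hpx and Serpina3n shared their closest match, the chemokine Cxcl17 (r = 0.90 for each). Lbp was closest to the carbonyl reductase Cbr1 (r = 0.90) and Socs3 to the cytochrome P450 gene Cyp4f18 (r = 0.89).

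**Figure D4:**
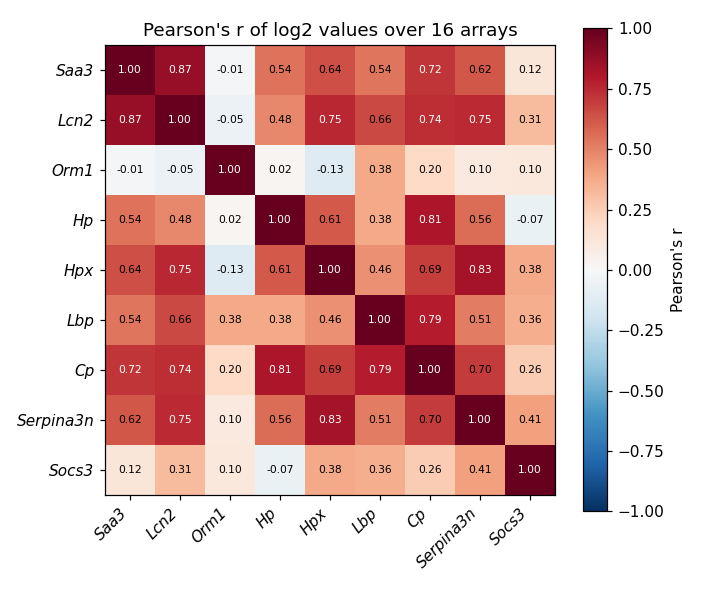
Pearson's r of log2(quantile-normalized intensity + 16) over the 16 arrays for each pair of the 9 genes, on a colour scale from -1 to 1. Rows and columns of Orm1 and Socs3 are pale, with r of at most 0.41, and the darkest pair off the diagonal is Saa3 with Lcn2 at 0.87.

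Genes around the 9 were taken from lists chosen with earlier results of these data known. Of 26 other acute-phase reactants 12 were tested, and 3 rose in pregnancy, both after TiO2, where 1.37% of all genes rose, and on average, where 3.19% rose and 1.23% fell; 0 of the list fell. They were the complement factor Cfb (0.69 ± 0.14 after TiO2, adjusted p = 0.0264), the IgA transporter Pigr (0.64 ± 0.14, adjusted p = 0.0288) and the iron-binding lactoferrin Ltf (0.91 ± 0.21, adjusted p = 0.0386), which neutrophils also store. The list's median change after TiO2 was 0.28, against 0.03 for all genes. The liver reactants Crp (4.33 to 5.05), Apcs (4.10 to 4.39) and Fgb (4.05 to 4.32) stayed near the floor on all arrays.

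Of 24 genes of the interleukin 6 and STAT3 pathway 18 were tested, and 2 rose in pregnancy on average with 0 lower, against the same 3.19% and 1.23%. These were the transcription factor Junb (0.46 ± 0.08, adjusted p = 0.00268) and the NF-kB cofactor Bcl3 (0.39 ± 0.09, adjusted p = 0.0176). The list's median was -0.05. Il6 itself lay between 4.04 and 5.002 and was not tested, and the receptor chain Il6st (-0.00 ± 0.06) and Stat3 (-0.06 ± 0.09) had adjusted p of 0.988 and 0.766. Il6ra, the receptor's ligand-binding chain, stood at -0.64 ± 0.19 (adjusted p = 0.0723).

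Of 27 genes of the interleukin 1 and NF-kB pathway 20 were tested, and 4 rose in pregnancy on average while 1 fell, against 3.19% and 1.23% of all genes. Il1b, the cytokine interleukin 1 beta, had the largest change of the 5 at 1.27 ± 0.10 (adjusted p = 2.19e-05). Il1b averaged 8.58 ± 0.12 in pregnant TiO2 lungs and 7.42 ± 0.17 in non-pregnant TiO2 lungs (SD, n = 4 each). After PBS it averaged 9.20 ± 0.22 in pregnant and 7.82 ± 0.31 in non-pregnant lungs. The others that rose were Il1a (0.38 ± 0.08), the adaptor Myd88 (0.22 ± 0.05) and the receptor Tlr2 (0.21 ± 0.06), and the inhibitor Nfkbia fell by 0.26 (SE 0.06, adjusted p = 0.0206).

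Of 17 genes of haem, haemoglobin and iron handling 15 were tested, and on average in pregnancy the metal transporter Slc11a1 (0.41 ± 0.08) and the biliverdin reductase Blvra (0.22 ± 0.06) rose while Heph, a membrane relative of ceruloplasmin, fell by 0.34 (SE 0.08). These 2 and 1 of 15, and the 1 and 2 of 15 that follow, stand beside the same 3.19% and 1.23%. All 15 glucocorticoid-response genes were tested, of which Mt1 rose (0.51 ± 0.11) and Ddit4 and Errfi1 fell, with changes of -1.26 ± 0.25 and -0.70 ± 0.16. The median of that list was -0.21, against 0.67 ± 0.13 for Serpina3n. After group means were removed Serpina3n followed the mean of the glucocorticoid-response list at r = 0.82, against r = 0.16 over the arrays as they stand. The non-pregnant PBS arrays with thymus transcripts were the lowest and highest of that group in both. Serpina3n was 7.32 in replicate 3 and 8.54 in replicate 4, where the list mean was 9.79 and 10.45. How far the r of 0.82 rests on these arrays was not tested. Since no gene tested passed for TiO2 in either pregnancy state in the main fit, none of these lists held a call there.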

How the data were processed

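Affymetrix mouse expression arrays of whole-lung RNA were analysed for 16 samples in 4 groups of 4, grouped by the labels' gestation and exposure entries. The array of conflicting labels stayed in the non-pregnant PBS group, which the series' design text lists with 4 samples. The labels do not say whether a sample is 1 mouse, so p-values measure the spread between these samples, which may be technical. The authors deposited linear intensity values, 1 for each of 45101 probe sets on each array, with trimmed means of 137 to 263 per array. GCOS, MAS5 and RMA are named per the submitters' processing notes, and their versions, order and roles are not given there.

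The 64 control probe sets were removed. The remaining values were quantile-normalized and taken to log2(value + 16), which understates changes of weak signals. The platform annotation gave 1 symbol for 34945 probe sets, several for 932 and none for 9160; symbols were updated for 34741 through the RefSeq table of GRCm38.p6. A filter on values above the array median on 4 or more arrays left 23995 probe sets and 12369 genes, each read from its brightest probe set. Changes were tested, two-sided, with limma 3.58.1 (lmFit, eBayes) in R 4.3.3, in 1 fit of 4 group means over 16 arrays (12 residual degrees of freedom) for 7 comparisons. Adjusted p-values are Benjamini-Hochberg values over all genes tested, with a threshold of 0.05, intervals are 95%, and ± beside a change is the SE. The procedure was tested on simulated data. In the main fit all groups share 1 estimate of the spread, so leaving out an array also moves p-values of comparisons it is not part of. The number of arrays limits the precision.

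The 9 genes, the 18 lists of other genes and the tests were chosen with earlier results of these data known. Named beside the 9 were, by rule, up to 3 genes of each list and comparison with the smallest p, receptors and ligands of the 9, defining cell markers and the 2 closest matches of each gene by correlation. Other called genes of the lists, and Crp, Apcs, Fgb, Saa1, Saa2, Orm2 and Orm3, were named after their values were seen. Alternatives covered scaling, pseudocount, filter, spread estimate, array weights, the groups in the fit, the probe set, the conflicting label and arrays left out. Leaving out the 3 arrays with little Glycam1 was chosen after seeing the data.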

Additional observations from a re-analysis of the deposited data

Results flagged for a closer look

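In 3 of the 36 sets formed by a gene and a group, 1 array lay far from the other 3 of its group, and all were in pregnant PBS lungs. Saa3 was at 7.53 in replicate 4, against 8.04 to 8.15 in the other 3. Lcn2 was at 10.95 in replicate 3, against 10.53 to 10.56. Hp was at 12.15 in replicate 1, against 12.31 to 12.34. Chance alone gives about 1 such array in 20 sets, and the 3 values come from 3 different arrays. The cause was not tested.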

How the results depend on the processing

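Of the 63 changes of single genes, the 52 reported were recomputed under 12 to 14 alternatives each and with each of the 16 arrays left out. Of these 52, 40 kept their sign throughout and 12 did not, and 0 of the 12 were called. In pregnancy averaged over exposures 4 genes were called. That count was 1 with the conflicting array as pregnant PBS, 2 without the thymus arrays, 0 without the arrays with little Glycam1, and 2 to 5 with 1 array left out. It was 5 with a pseudocount of 64 or with genes above the median on all 16 arrays, 6 with array weights and 3 or 4 otherwise, with Socs3 called in 5 alternatives and Orm1 in 3. Among all genes, calls on average numbered 547 in the main fit, 578 with a pseudocount of 64 and 935 with array weights. They were 542 with genes above the median on all 16 arrays and 102 on the values as deposited. The number of genes tested also differs with the filter. After TiO2 the count of 2 was 1 on the values as deposited, 0 with no filter, 6 with array weights and 5 with only the groups compared. It was 3 with trimmed-mean scaling, with a pseudocount of 64 and with a trended and robust spread. It was 1 with the conflicting array moved, 5 without the thymus arrays and 0 without the arrays with little Glycam1. With 1 array left out it was 0 to 4. Calls among all genes after TiO2 numbered 233 in the main fit. They were 21 on the values as deposited, 141 with no filter, 1505 with array weights and 483 with only the groups compared. With trimmed-mean scaling, a pseudocount of 64 and a trended and robust spread they were 206, 299 and 339, in that order. With the conflicting array moved they were 104, without the thymus arrays 420 and without the arrays with little Glycam1 5. After PBS the count of 0 was 1, Serpina3n each time, with a pseudocount of 64, with genes above the median on all 16 arrays, with a trended and robust spread, and without the thymus arrays or the 3 arrays of unlike tissue content. Calls among all genes after PBS were 151, 133, 154, 249 and 295 in those settings, in that order, against 129 in the main fit. With 1 array left out the count among the 9 genes was 0 to 1. The 4 counts for TiO2 and for the difference of its effects stayed at 0 in every run. The values as deposited shift the median of all genes by 0.17 for TiO2 in non-pregnant mice, by 0.16 for pregnancy after PBS and by -0.25 for the difference of TiO2 effects.

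Signs turned for changes of 0.25 or less in size in the main fit. The largest were 0.25 for Saa3 with pregnancy after PBS, then 0.23 for Socs3 and 0.12 for Cp with TiO2 in non-pregnant mice. The changes that turned on values as deposited were Lbp (0.19) with TiO2 in non-pregnant mice, Orm1 with TiO2 in pregnant mice (-0.094) and with pregnancy after PBS (0.13), Hp with pregnancy after TiO2 (-0.0053) and Lcn2 in the difference of TiO2 effects (-0.14). Array weights gave Lbp 0.017 with TiO2 in non-pregnant mice and Orm1 0.11 with pregnancy after PBS. Trimmed-mean scaling gave Hp 0.045 and Orm1 -0.013 with TiO2 in pregnant mice and Hp -0.025 in non-pregnant mice. Second probe sets gave Socs3 0.068 in pregnant and Lbp 0.10 in non-pregnant mice. For Hp with TiO2 in pregnant mice, the conflicting array as pregnant PBS gave 0.014, and leaving out the arrays with little Glycam1, or those of unlike tissue content, gave 0.0064. Without the thymus arrays, with or without pregnant TiO2 replicate 2, TiO2 in non-pregnant mice gave Cp -0.33 and Hp -0.050, and pregnancy after PBS gave Saa3 -0.27 and Hp -0.0023. With 1 array left out the ranges were Orm1 -0.32 to 0.34, Hp -0.045 to 0.018 and Socs3 -0.24 to 0.028 with TiO2 in pregnant mice. They were Lbp -0.075 to 0.0078, Socs3 -0.022 to 0.45, Hp -0.0027 to 0.11 and Cp -0.075 to 0.35 with TiO2 in non-pregnant mice. They were Orm1 -0.28 to 0.29 and Saa3 -0.039 to 0.57 with pregnancy after PBS, and Lcn2 -0.016 to 0.27 in the difference. The cause was not tested. No paired analysis was possible because replicates were numbered in accession order alone.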
